A study of Mus musculus with 20 samples.

Results

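The genes described here are the 8 members of the suppressor of cytokine signalling (SOCS) family, Cish and Socs1 to Socs7. They were found by gene symbol among probe sets annotated to a single gene: 24 probe sets named a SOCS gene alone, none named a SOCS gene together with another gene, and all 8 genes were among the 18194 genes measured. Each gene was read from its probe set with the highest mean over the 20 arrays, and the other 16 probe sets served as a check. RNA came from mouse red cell precursors of the CFU-E type (colony-forming units, erythroid), taken from BALB/c fetal livers at embryonic day 13.5 and enriched by magnetic removal of cells carrying markers of other blood lineages. Cells stimulated with erythropoietin (Epo, 0.5 U/ml) were sampled at 0 to 8 h hourly and at 14, 19 and 24 h (12 arrays), and untreated cells at 0 to 7 h hourly (8 arrays), with 1 array per treatment and time. The labels disagree on the preceding hours, giving both a starvation of 1 h straight after sorting and a longer culture with Epo after it. Separate cultures for the hours are nowhere mentioned, and p-values therefore reflect only how arrays of successive hours scatter, which may be technical. The cells are a bulk sort, in which fewer cells of a type and less RNA per cell cannot be told apart.

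SOCS proteins are the classical negative feedback of cytokine receptors. Epo binding activates the receptor-bound kinase JAK2, which phosphorylates the receptor and the transcription factor STAT5, and STAT5 dimers bind palindromic DNA sites in target genes, among them members of this family. A SOCS protein carries an SH2 domain, which docks on phosphotyrosine, and a C-terminal SOCS box, which recruits elongins and a cullin to mark bound proteins for degradation. CIS, the product of Cish, occupies STAT5 docking sites on the receptor, while SOCS1 and SOCS3 can also block the kinase through a short inhibitory region. The series was made to study feedback in the JAK2 and STAT5 pathway of these cells.

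The start regions of Cish, Socs3 and Socs1 are shown because the 3 genes are classical cytokine-induced members and differed in the palindromic letters that STAT5 dimers are known to bind. Each window runs from 250 bases before to 50 bases after the annotated start (RefSeq, GRCm38.p6) and is written along the gene's own strand. Capitals mark matches to TTCNNNGAA, which reads the same on both strands, so a single search covers both. The Cish window lies at chr9:107296409-107296708 on the plus strand, the Socs3 window at chr11:117969317-117969616 on the minus strand and the Socs1 window at chr16:10785487-10785786 on the minus strand.
Cish: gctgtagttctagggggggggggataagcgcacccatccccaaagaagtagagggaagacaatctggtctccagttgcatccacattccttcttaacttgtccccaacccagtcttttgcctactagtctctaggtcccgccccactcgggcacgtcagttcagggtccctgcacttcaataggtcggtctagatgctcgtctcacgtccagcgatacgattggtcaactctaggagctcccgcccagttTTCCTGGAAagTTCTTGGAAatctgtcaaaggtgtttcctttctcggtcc
Socs3: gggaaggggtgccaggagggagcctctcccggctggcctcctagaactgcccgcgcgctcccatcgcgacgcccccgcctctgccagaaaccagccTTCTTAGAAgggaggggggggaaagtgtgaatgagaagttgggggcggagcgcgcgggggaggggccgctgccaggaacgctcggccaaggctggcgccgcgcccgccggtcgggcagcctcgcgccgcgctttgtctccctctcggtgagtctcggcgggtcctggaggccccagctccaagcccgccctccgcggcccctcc
Socs1: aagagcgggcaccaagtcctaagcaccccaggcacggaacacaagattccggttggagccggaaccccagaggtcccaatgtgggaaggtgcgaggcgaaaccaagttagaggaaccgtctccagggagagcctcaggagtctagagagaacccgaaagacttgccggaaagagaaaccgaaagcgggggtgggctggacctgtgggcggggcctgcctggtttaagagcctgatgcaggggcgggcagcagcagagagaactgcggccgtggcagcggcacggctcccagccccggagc
The Cish window held 2 matches, TTCCTGGAA beginning at the annotated start and TTCTTGGAA beginning 11 bases after it. The Socs3 window held 1 match, TTCTTAGAA, beginning 154 bases before the start, and the Socs1 window held 0. Of 32851 such windows of mouse genes, 8.3% held at least 1 match and 0.457% at least 2. The window of Socs4, the only other member matched in the promoter table and searched here, held 0. A match describes the letters only.

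The arrays carried strong erythroid transcripts and also RNA of other fetal liver cells. The red cell transcription factor genes Klf1 and Gata1 never lay below 11.32 and 9.81 on the log2 scale of the arrays, and Epor, the Epo receptor gene, never below 9.62. Of 12 erythroid markers 10 were measured, and the probe set of the globin gene Hba-a1 stayed between 3.19 and 3.80. The summed hepatocyte markers (11 of 13 measured) lay at 15.06 with Epo and 13.99 without Epo at 0 h, at 12.82 to 14.48 with Epo at 1 to 8 h, at 8.81 to 11.30 with Epo at 14 to 24 h and at 12.34 to 13.62 without Epo at 1 to 7 h. The summed granulocyte markers lay at 9.48 with Epo and 11.04 without Epo at 0 h. At 1 to 7 h, 1 of 10 erythroid markers was called higher with Epo and 6 lower (median -0.38), 9 hepatocyte markers higher and 0 lower, and 1 of 13 granulocyte markers higher and 2 lower. Of the macrophage (13), megakaryocyte (9), mast cell and basophil (9), lymphoid (11) and endothelial and stromal (13) markers, 0, 2, 1, 0 and 2 were called higher and 0, 1, 0, 0 and 1 lower. The part of other cells in the SOCS results was not tested. At 0 h, 551 genes (3.03%) already lay at least 2-fold apart between the series, and no SOCS gene was among them.

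**Figure D1:**
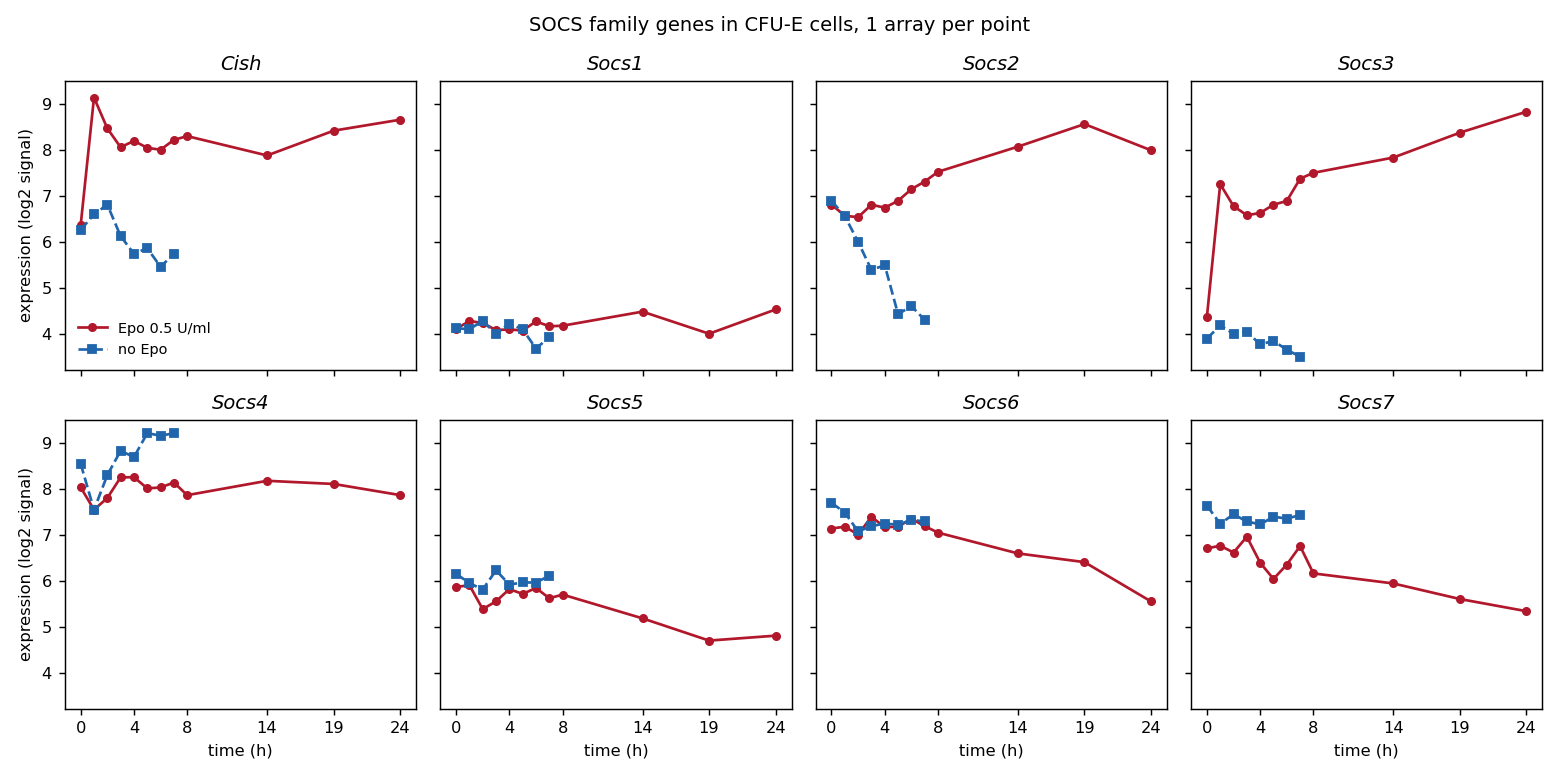
Expression (log2 signal, y axis) of the 8 SOCS family genes against time (h, x axis), with 1 array per point, red circles for Epo and blue squares for no Epo. Cish and Socs3 jump at 1 h with Epo to 9.14 and 7.25, Socs2 falls to 4.30 by 7 h without Epo, and Socs5, Socs6 and Socs7 are lowest at 14 to 24 h with Epo.

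The first question was which family members differed between cells with and without Epo within 7 h. Each gene's value is the mean over 7 hourly pairs of Epo minus no Epo, in log2 units and with its SE. Cish, Socs2 and Socs3 were higher with Epo, Socs4, Socs5 and Socs7 were lower, and Socs1 and Socs6 passed no test (limma, threshold 0.05 after Benjamini-Hochberg adjustment across the 18194 genes). Of all genes 38.4% were called, 18.2% higher and 20.2% lower; 3 of 8 members were called in each direction, and the members were chosen with earlier results of these data known. The median difference of the family was 0.04, against 0.03 over all genes.

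Cish, which encodes CIS, was higher with Epo from the first hour on. It lay at 6.37 at 0 h, 9.14 at 1 h, 8.47 at 2 h and 8.06 at 3 h with Epo, and then between 8.00 and 8.30 up to 8 h. Without Epo it lay at 6.26 at 0 h, 6.60 at 1 h and 6.81 at 2 h, and between 5.45 and 6.12 at 3 to 7 h. Every array with Epo from 1 h on was thus above every array without Epo, and the first hour held the highest level of all. The median at 1 to 7 h was 8.20 with Epo (range 8.00 to 9.14) and 5.86 without Epo (range 5.45 to 6.81). The difference was 2.26 ± 0.12 (4.79-fold, adjusted p = 8.6e-07), with Epo higher in 7 of 7 pairs. At 0 h the series differed by 0.11 only. Measured from the 0 h difference, the Epo effect was 2.15 (adjusted p = 0.058), or adjusted p = 0.0030 when a linear drift of the differences was allowed.

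Socs3, whose product can block JAK2, was also higher with Epo from the first hour on. With Epo it lay at 4.36 at 0 h, 7.25 at 1 h, 6.78 at 2 h, 6.58 at 3 h, 6.63 at 4 h, 6.81 at 5 h, 6.89 at 6 h, 7.37 at 7 h and 7.50 at 8 h. Without Epo it lay at 3.89 at 0 h and at a median of 3.84 (range 3.50 to 4.18) at 1 to 7 h, and whether this was above background is unknown without detection calls. The groups did not overlap, and all Epo arrays from 1 h on stood far above the others. The difference was 3.05 ± 0.14 (8.27-fold, adjusted p = 7.3e-07), with Epo higher in 7 of 7 pairs and by 2.54 to 3.87. It was 2.58 after subtraction of the 0 h difference of 0.47 (adjusted p = 0.049, or 0.0011 with drift). Socs3 was read from a probe set whose suffix marks possible cross-hybridisation, and its only probe set without that suffix gave 1.12 ± 0.11 (adjusted p = 2.0e-05), while the mean of all 3 gave 2.07.

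Cish, Socs3 and Socs7 were the members whose arrays with and without Epo did not overlap at 1 to 7 h, Cish and Socs3 with Epo above (6.56% of all genes) and Socs7 with Epo below (7.31%). Cish and Socs3, each in its brightest probe set, were at least 2-fold higher with Epo in every matched hour, as were 0.649% of all genes. In the first hour of Epo they differed from their own 0 h arrays by 2.77 and 2.89, and 0.341% of all genes lay at least 2-fold above their 0 h level there. In the first hour without Epo the same 2 genes differed from 0 h by 0.34 and 0.29. Between the series, Cish and Socs3 were at least 2-fold higher with Epo at 1 h, as were 1.79% of all genes, and Cish, Socs2 and Socs3 at 7 h, as were 4.51%. In the Socs3 probe set without the cross-hybridisation suffix the differences at 2 and 3 h were under 2-fold. It lay there at 5.68 and 5.47 with Epo and at 4.95 and 4.66 without Epo. In the first hour of Epo that probe set went from 4.75 to 5.88. These hourly values rest on 1 array each and have no test.

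Socs2, known as a brake on growth hormone signalling, differed by another route. With Epo it lay at 6.81 at 0 h, 6.57 at 1 h, 6.53 at 2 h, 6.81 at 3 h, 6.74 at 4 h, 6.89 at 5 h, 7.15 at 6 h, 7.31 at 7 h and 7.52 at 8 h. Without Epo it lay at 6.89 at 0 h, 6.56 at 1 h, 6.00 at 2 h, 5.39 at 3 h, 5.49 at 4 h, 4.42 at 5 h, 4.60 at 6 h and 4.30 at 7 h. In this brightest probe set the series lay together at 0 and 1 h and parted from 2 h on. The 7 h array differed from the 0 h array by 0.50 with Epo and by -2.59 without Epo. The mean difference over 1 to 7 h was 1.61 ± 0.32 (3.05-fold, adjusted p = 0.0018), with Epo higher in 7 of 7 pairs and by 0.01 at 1 h and 3.02 at 7 h. From the 0 h difference of -0.08 it was 1.69 (adjusted p = 0.65, or 0.0063 with drift). That fit without drift counts the steady change of the difference as scatter. In the next brightest Socs2 probe set the Epo series was lower at 0 h (5.35 against 5.99) and at 1 h (4.84 against 5.49). It was level at 2 h (4.93 against 4.95) and higher from 3 h on.

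Socs1, which like Socs3 can block JAK kinases and is a classical interferon target, gave no detectable difference. Its levels lay at 4.07 to 4.28 with Epo (median 4.16) and at 3.67 to 4.27 without Epo (median 4.09) at 1 to 7 h. The ranges overlapped and Epo was higher in 4 of 7 pairs. The difference was 0.13 ± 0.09 (adjusted p = 0.31). Its only probe set was in the middle of the array's brightness range (percentile 51.9 of all probe sets), and no detection calls were used, so whether it lay above background is unknown.

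**Figure D2:**
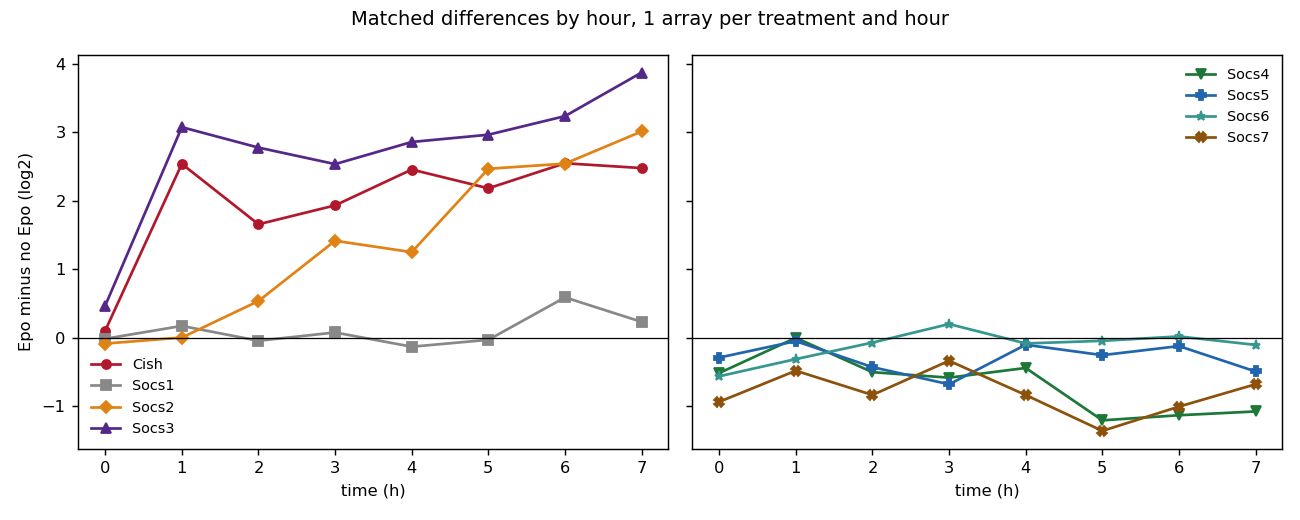
Matched differences (Epo minus no Epo, log2, y axis) of each SOCS family gene against time (h, x axis), with 1 array per treatment and hour; Cish, Socs1, Socs2 and Socs3 are on the left and Socs4 to Socs7 on the right. Cish and Socs3 are apart from 1 h on, Socs2 parts gradually to 3.02 at 7 h, and Socs7 already lies at -0.93 at 0 h.

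The other members lie in the branch of the family with long N-terminal regions. Socs4 and Socs5, which are close relatives linked to turnover of the epidermal growth factor receptor, were both lower with Epo. Socs4 lay at a median of 8.03 (range 7.55 to 8.26) with Epo and 8.83 (range 7.54 to 9.21) without Epo at 1 to 7 h. Its ranges overlapped, since both series lay at their lowest at 1 h, and the lines separated most at 5 to 7 h. In the first hour it differed from its own 0 h array by -0.49 with Epo and by -1.003 without Epo, where 0.643% of all genes changed at least 2-fold in either direction. The difference of Socs4 was -0.70 ± 0.14 (adjusted p = 0.0024), with Epo lower in 6 of 7 pairs. Socs5 lay at a median of 5.71 (range 5.38 to 5.90) with Epo and 5.96 (range 5.81 to 6.23) without Epo. The overlap was small and Epo was lower in 7 of 7 pairs, at -0.30 ± 0.10 (adjusted p = 0.034). The Socs5 call was lost without the pair at 2, 3, 5 or 7 h (adjusted p = 0.060 to 0.098) and after quantile normalization (-0.20, adjusted p = 0.15).

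Socs6 and Socs7, adaptor-like members linked to insulin and stem cell factor signalling, did not share a call. Socs7 lay at a median of 6.62 (range 6.04 to 6.96) with Epo and 7.35 (range 7.23 to 7.45) without Epo. Every array with Epo lay below every array without Epo at 1 to 7 h, but the 0 h arrays stood apart too, at 6.70 with Epo and 7.64 without Epo. The difference was -0.79 ± 0.12 (adjusted p = 0.00039). Socs6 lay at a median of 7.18 (range 7.01 to 7.39) with Epo and 7.25 (range 7.07 to 7.49) without Epo. Its difference was -0.05 ± 0.09 (adjusted p = 0.69), and its series overlapped.

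Socs4, Socs5 and Socs7 also lay lower in the Epo series at 0 h, with 1 array each. They differed there by -0.51, -0.29 and -0.93, in the order named. After subtraction of these values the differences were -0.19, -0.01 and 0.15, and none passed with or without drift (adjusted p from 0.78 to 0.99). Only 1 pair of arrays gives the value subtracted, and the SE grew for each gene.

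The check on the other probe sets bore differently on each gene. All 3 Socs3 probe sets were higher with Epo in a fit of all 45037 probe sets (of which 34.6% were called), at 3.05 ± 0.14, 1.12 ± 0.12 and 2.03 ± 0.15, and so was the next brightest Socs2 probe set, at 1.17 ± 0.34 (adjusted p = 0.017). Of the 4 dimmer Socs2 probe sets 2 were called, at 0.24 (adjusted p = 0.023) and 0.26 (adjusted p = 0.012), and the others lay at 0.05. The mean of all 6 Socs2 probe sets gave 0.56 (adjusted p = 0.0041). For Socs6 the brightest probe set stood alone: the other 2 were lower with Epo, at -1.53 ± 0.18 (adjusted p = 4.4e-05) and -1.05 ± 0.09 (adjusted p = 4.4e-06). For Socs7 the reverse held, with its other 3 probe sets between -0.01 and 0.01 and none called. For Socs4 the other 3 lay at -0.07, -0.15 and -0.31, the dimmest of them called (adjusted p = 0.039), and for Socs5 the second lay at -0.43 ± 0.16 (adjusted p = 0.051). As the mean of all its probe sets Socs6 was lower, at -0.88 (adjusted p = 5.0e-05), and Socs7 was at -0.20 (adjusted p = 0.059). Which transcripts the probe sets of 1 gene read was not analysed here.

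**Figure D3:**
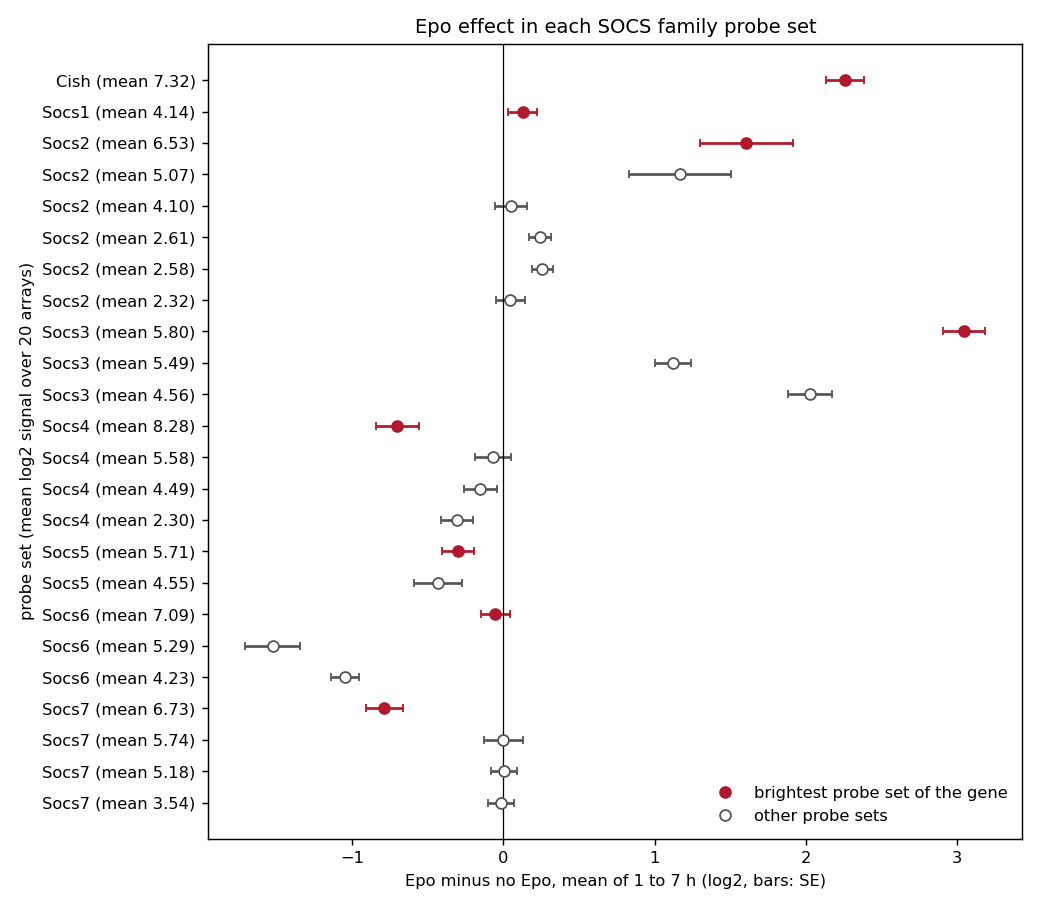
Mean of the 7 hourly differences (Epo minus no Epo at 1 to 7 h, log2, x axis, bars are SE) for each of the 24 SOCS family probe sets, listed by gene with their mean log2 signal (y axis); filled red circles are the brightest probe set of a gene. The Socs3 probe sets all lie right of 1, the brightest Socs6 probe set lies near 0 while the other 2 lie left of -1, and the brightest Socs7 probe set lies left of its other 3.

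The next question was whether the difference changed while Epo was present, given by regressing the 7 hourly differences on hours. Of the 8 genes 1 rose and 1 fell in this measure; of all genes 15.2% were called, 7.26% rising and 7.97% falling. The difference of Socs2 grew by 0.50 ± 0.05 per hour (adjusted p = 2.6e-05). The difference of Socs4 fell by 0.18 per hour (± 0.04, adjusted p = 0.0078), but this call was lost without the pair at 1 h (adjusted p = 0.055) and as the mean of all its probe sets (-0.11, adjusted p = 0.10). Cish, at 0.07 ± 0.05 per hour (adjusted p = 0.52), and Socs3, at 0.13 ± 0.06 per hour (adjusted p = 0.14), did not pass. Without the pair at 1 h, Socs3 passed, at 0.22 per hour (adjusted p = 0.025). Without the pair at 7 h its slope was 0.048 (adjusted p = 0.75). Socs1, Socs5, Socs6 and Socs7 lay between -0.07 and 0.05 per hour, and none passed. In the second Socs6 probe set the difference fell by 0.25 ± 0.05 per hour (adjusted p = 0.0057 over all probe sets). In the dimmest Socs6 probe set it had a slope of -0.04 (adjusted p = 0.77).

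Without Epo, 1 member rose and 3 fell over 0 to 7 h, where 28.7% of all genes were called, 13.3% rising and 15.4% falling. Socs2 fell by 0.39 log2 units per hour (± 0.03, adjusted p = 1.9e-05), a steeper slope in size than that of 99.4% of genes. Cish fell by 0.15 per hour (± 0.04, adjusted p = 0.013), with its lowest array, 5.45, at 6 h and its highest, 6.81, at 2 h. The Cish call was lost without the array at 6 h (adjusted p = 0.055). Socs3 fell by 0.073 per hour (± 0.023, adjusted p = 0.032), but its probe set without the cross-hybridisation suffix had a slope of 0.0035 (adjusted p = 0.96). The Socs3 call was also lost without the array at 1, 2, 6 or 7 h (adjusted p of 0.052 to 0.18). Socs4 rose by 0.18 ± 0.05 per hour (adjusted p = 0.010), with its lowest array at 1 h and its highest at 5 and 7 h. Socs1, Socs5, Socs6 and Socs7 had slopes between -0.045 and -0.00096 and did not pass. The other Socs6 probe sets rose, by 0.13 ± 0.03 (adjusted p = 0.0095 over all probe sets) and 0.11 ± 0.03 per hour (adjusted p = 0.012).

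With Epo present from 1 to 8 h, 1 member rose and 0 fell, where 5.8% of all genes were called, 2.18% rising and 3.62% falling. Socs2 rose by 0.14 ± 0.02 per hour (adjusted p = 0.0020), and its next brightest probe set by 0.13 ± 0.03 (adjusted p = 0.041 over all probe sets). Cish had a slope of -0.089 ± 0.037 (adjusted p = 0.22) on linear time and of -0.29 per doubling of time (adjusted p = 0.035) when time was taken on a log2 scale. Without the array at 1 h its slope was -0.013 (adjusted p = 0.90). Socs3 had a slope of 0.069 ± 0.039 (adjusted p = 0.42), and without the array at 1 h it rose by 0.14 per hour (adjusted p = 0.024). Without the array at 7 h the Socs3 slope was 0.051 (adjusted p = 0.71), and without that at 8 h 0.029 (adjusted p = 0.83). A difference between the courses of these 2 genes was not tested.

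The late arrays asked whether the levels of the first 8 h lasted. Relative to 1 to 8 h with Epo, Socs2 and Socs3 were higher at 14 to 24 h, Socs5, Socs6 and Socs7 were lower, and Cish, Socs1 and Socs4 did not pass. Thus 2 of 8 rose and 3 of 8 fell, where 36.2% of all genes were called, 17.6% rising and 18.5% falling. Socs3 lay at 7.83, 8.38 and 8.83 at 14, 19 and 24 h, above all 8 arrays of 1 to 8 h (median 6.85, range 6.58 to 7.50). The rise was 1.37 ± 0.23 (2.59-fold, adjusted p = 0.00039), and the level at 24 h was 4.47 above that of 0 h. Socs2 lay at 8.07, 8.56 and 7.99, again above all 8 arrays of 1 to 8 h (median 6.85, range 6.53 to 7.52), and rose by 1.27 ± 0.21 (2.41-fold, adjusted p = 0.00036). Cish lay at 7.88, 8.42 and 8.66, within its range of 8.00 to 9.14 at 1 to 8 h but for the first of them. Its difference was 0.01 ± 0.22 (adjusted p = 0.96), which does not show that the level was constant.

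Socs5, Socs6 and Socs7 had their lowest Epo arrays at the late times. Socs6 lay at 6.60, 6.41 and 5.55 at 14, 19 and 24 h, below all arrays of 1 to 8 h (median 7.18, range 7.01 to 7.39). It fell by 1.00 (± 0.18, adjusted p = 0.00074), to 0.498 times the earlier level. Socs7 lay at 5.94, 5.60 and 5.34, below its range of 6.04 to 6.96, and fell by 0.88 (± 0.20, adjusted p = 0.0030). Socs5 lay at 5.18, 4.70 and 4.81, below its range of 5.38 to 5.90, and fell by 0.80 (± 0.14, adjusted p = 0.00062). Over all genes, 11.8% had late arrays entirely above those of 1 to 8 h and 14.3% entirely below. The second Socs5 probe set fell by 1.21, and of the other Socs6 probe sets 1 fell by 1.01 and the other had a difference of -0.33 (adjusted p = 0.088). For Socs7, 1 other probe set fell by 0.70, 1 was at -0.02 (adjusted p = 0.91) and the dimmest rose by 0.47 (adjusted p = 0.022). Socs1, at 4.48, 4.00 and 4.53, and Socs4, at 8.18, 8.11 and 7.87, overlapped their earlier ranges, with differences of 0.17 ± 0.12 (adjusted p = 0.30) and 0.06 ± 0.16 (adjusted p = 0.78). The Socs1 difference passed without the array at 19 h (0.33, adjusted p = 0.039). That was the only 1 of 17 alternatives under which it passed, and single arrays left out gave 0.070 to 0.33. These late arrays were also those with the fewest hepatocyte transcripts (8 of 11 markers called lower against 1 to 8 h, 0 higher), while 7 of 10 erythroid markers were called higher and 1 lower. Of the other lists, 6 of 13 granulocyte markers were higher and 3 lower, 3 of 9 mast cell and basophil markers higher and 1 lower, and 4 of 9 megakaryocyte, 3 of 13 macrophage, 5 of 11 lymphoid and 3 of 13 endothelial and stromal markers higher and 0 lower. Their part in the late changes was not tested. The 24 h array also had the smallest spread of values over all probe sets (SD 2.31, next lowest array 2.42). The dimmest Socs7 probe set was highest in that array, at 4.37. Whether the narrower spread bears on the late rises of dim probe sets was not tested.

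**Figure D4:**
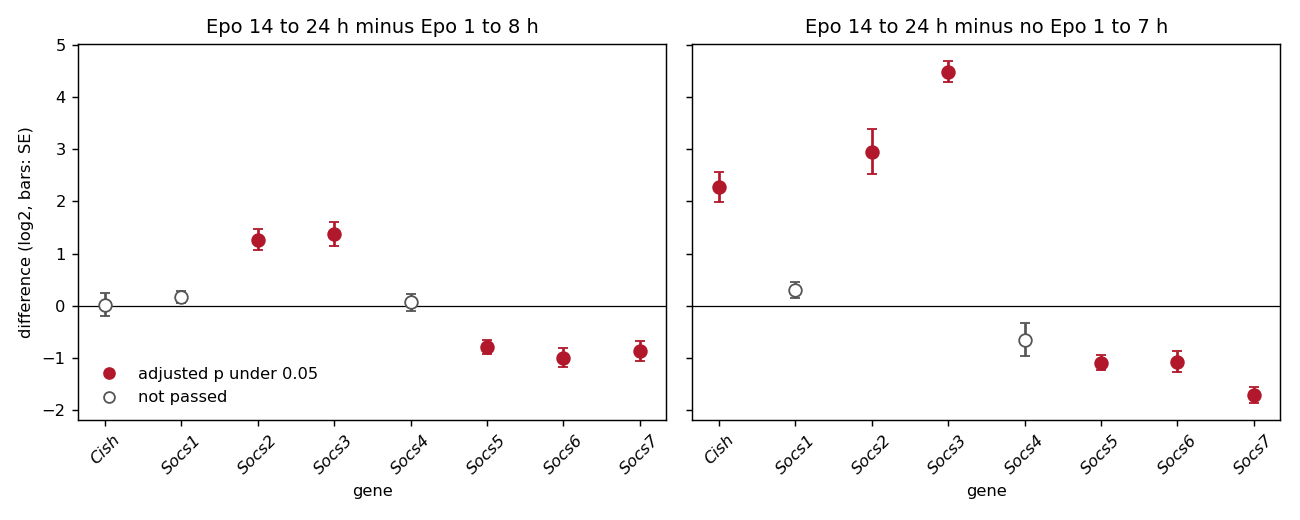
Difference (log2, y axis; bars are SE) of the mean of 14, 19 and 24 h with Epo from Epo at 1 to 8 h (left) and from no Epo at 1 to 7 h (right) for each SOCS family gene (x axis); filled circles passed an adjusted p of 0.05. Socs2 and Socs3 are above 0 and Socs5, Socs6 and Socs7 below 0 in both panels, while Cish is at 0.01 on the left and 2.27 on the right.

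Set against untreated cells of 1 to 7 h, 3 members were higher and 3 lower in late Epo cells, where 44.7% of all genes were called, 24.5% higher and 20.2% lower. Treatment and time cannot be told apart in this comparison, since untreated cells were followed to 7 h. Socs3 was higher by 4.49 ± 0.20 (22.5-fold, adjusted p = 1.3e-07), Socs2 by 2.96 ± 0.43 (7.77-fold, adjusted p = 0.00024) and Cish by 2.27 ± 0.29 (4.83-fold, adjusted p = 9.1e-05). Socs7 was lower, at -1.71 ± 0.15 (adjusted p = 1.2e-05), as were Socs5 at -1.10 ± 0.14 (adjusted p = 0.00012) and Socs6 at -1.08 ± 0.20 (adjusted p = 0.0013). Socs4 was at -0.66 ± 0.32 (adjusted p = 0.11), and was lower against 5 to 7 h without Epo (-1.15, adjusted p = 0.00057). Socs1 was at 0.29 ± 0.15 (adjusted p = 0.12). The Socs3 probe set without the cross-hybridisation suffix gave 2.45 ± 0.21 (adjusted p = 1.1e-05), and the mean of the 3 probe sets 3.47. Of the other Socs7 probe sets 1 was lower at -0.76, 1 lay at -0.02 (adjusted p = 0.91) and the dimmest was higher at 0.48 (adjusted p = 0.013), and the mean of all 4 was -0.50. The mean of all probe sets was 1.32 for Socs2 and -1.67 for Socs6. Without the array at 1 h Socs4 was lower (-0.85, adjusted p = 0.0065), and without the array at 19 h Socs1 was higher (0.46, adjusted p = 0.032). Single arrays left out gave -0.85 to -0.57 for Socs4 and 0.20 to 0.46 for Socs1. Socs4 passed under 2 of 17 alternatives and Socs1 under 1 of 16.

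Across conditions, the order of levels thus differed by gene. For Socs3, late Epo cells averaged 8.35 ± 0.50 (SD, n = 3), Epo cells of 1 to 8 h 6.98 ± 0.35 (n = 8) and untreated cells of 1 to 7 h 3.85 ± 0.24 (n = 7), with no overlap between neighbours. For Socs2 the same order held, at 8.21 ± 0.31, 6.94 ± 0.36 and 5.25 ± 0.85, and the lower neighbours overlapped. For Cish, late and early Epo cells lay at 8.32 ± 0.40 and 8.30 ± 0.37, within each other's spread, and untreated cells at 6.05 ± 0.49. For Socs7 the order ran the other way, at 5.63 ± 0.30, 6.51 ± 0.32 and 7.34 ± 0.09, with no overlap between neighbours. For Socs6, late Epo cells lay at 6.18 ± 0.56. Early Epo cells lay at 7.19 ± 0.13 and untreated cells at 7.26 ± 0.13, within each other's spread. These orders are those of the brightest probe set of each gene. At 1 to 7 h the other Socs6 probe sets were lower with Epo, at -1.53 and -1.05. The other Socs7 probe sets lay between -0.01 and 0.01 there, and the brightest already differed by -0.93 at 0 h.

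Over the 12 arrays with Epo, Socs5, Socs6 and Socs7 correlated pairwise at r = 0.75 to 0.85, and over the 8 arrays without Epo at r = 0.24 to 0.43. Cish and Socs3 correlated at r = 0.76 over the arrays with Epo and at 0.80 over those without. Socs2 and Socs4 correlated at r = 0.23 with Epo and at -0.83 without. These values describe arrays that share 1 time course and follow each other in time, and carry no test.

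Among 7061 genes that ranged over at least 1 log2 unit in the arrays with Epo, the courses most like each classical member were named by the highest Pearson r over those 12 arrays. For Cish these were Garre1 (r = 0.87), Mapk15 (0.80), Gadd45b (0.79), a stress-induced gene of the growth arrest family, Socs3 (0.76) and Prkab2 (0.74), a regulatory subunit gene of AMP-activated kinase. Over the 8 arrays without Epo, r with Cish was -0.65 for Garre1, 0.78 for Mapk15, -0.34 for Gadd45b, 0.80 for Socs3 and 0.24 for Prkab2. In that order, their mean Epo minus no Epo at 1 to 7 h was -1.145, -0.095, 0.048, 3.048 and -0.339. For Cish it was 2.26. For Socs2 they were Natd1, Hemgn, a nuclear protein gene of erythroid cells, Ccdc103, Ccdc77 and Ctsd, the lysosomal protease cathepsin D, all with r of 0.98. Over the 8 arrays without Epo these 5 genes ran against Socs2, with r between -0.99 and -0.91. All 5 were lower with Epo at 1 to 7 h, by means of -1.21 to -0.57, against 1.61 for Socs2. For Socs3 they were Nxnl2 (0.93), Oprk1 (0.93), Actl7b (0.93), Vxn (0.93) and E2f2 (0.92), a cell cycle transcription factor gene. Without Epo their r lay between -0.54 and 0.25. In that order, their mean Epo minus no Epo at 1 to 7 h was 0.26, -0.14, -0.05, 0.08 and -1.42, against 3.05 for Socs3. Their ranges with Epo were 1.19, 1.44, 1.07, 1.02 and 2.68, against 4.47 for Socs3. For Socs1, whose own range was only 0.53, they were Wnt4 (0.93), Slc12a5 (0.85), Ttll9 (0.85), Krt86 (0.84) and Arhgap30 (0.83), with r between -0.57 and 0.30 without Epo.

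The partners of the SOCS box were measured beside the family. Of 16 genes of the elongin, cullin and NEDD8 machinery, 9 were higher and 2 lower with Epo at 1 to 7 h, where 18.2% and 20.2% of all genes were (median 0.43, against 0.03 over all genes). Eloc, which encodes elongin C, the direct partner of the SOCS box, was higher by 1.19 ± 0.11 (adjusted p = 1.2e-05) and fell without Epo by 0.17 per hour (± 0.02, adjusted p = 7.8e-05). Uba3, a subunit gene of the enzyme that activates NEDD8, was higher by 1.02 ± 0.14, Rnf7, the RING subunit that pairs with cullin 5, by 1.01 ± 0.07 and the cullin gene Cul2 by 1.01 ± 0.17. At 0 h Rnf7 already differed by 0.86 and Uba3 by 0.63, against 0.40 for Eloc and -0.12 for Cul2. In the late Epo arrays 2 of the 16 had risen and 7 had fallen relative to 1 to 8 h (17.6% and 18.5% of all genes), Cul2 by 0.90 (± 0.17, adjusted p = 0.0011). Of 28 other proteins with a SOCS box, 4 were higher and 6 lower (median 0.02), in all a share near the 38.4% of all genes called. Among them were Asb6 at -1.10 ± 0.16, Rab40c at -1.01 ± 0.16, Asb8 at -0.93 ± 0.10 and Asb3 at 0.64 ± 0.15. In the order named, these genes differed at 0 h by -0.14, 0.18, -0.42 and 0.59.

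Upstream components, receptors bound by SOCS proteins and other brakes were counted in the same way, and the shares of all genes called at 1 to 7 h (18.2% higher, 20.2% lower) apply to each list. Of 19 genes of the Epo receptor pathway, 1 was higher and 11 were lower (median -0.36), with Pik3r1, a PI3 kinase regulatory subunit gene, at -1.64 ± 0.16, Jak2 at -0.91 ± 0.17, Epor at -0.89 ± 0.14 and Stat3 at -0.86 ± 0.11. All 4 already differed in that direction at 0 h, by -0.80, -0.58, -0.39 and -0.74. From 0 h to the mean of 1 to 7 h, Pik3r1 went from 6.70 to 6.71 with Epo and from 7.50 to 8.35 without. Jak2 went from 7.52 to 7.41 with Epo and from 8.09 to 8.33 without. Epor went from 9.85 to 9.91 with Epo and from 10.25 to 10.79 without. For Stat3 the values were 6.98 and 6.78 with Epo and 7.72 and 7.64 without. Of 20 cytokine and growth factor receptor genes and adaptors, 2 were higher and 8 lower (median -0.12). Kit, the stem cell factor receptor, lay at -2.17 ± 0.21 (-1.40 at 0 h). The insulin receptor gene Insr lay at -1.57 ± 0.23 (-0.38 at 0 h). Ifngr2, an interferon gamma receptor chain, lay at -0.999 ± 0.165 (-0.40 at 0 h). Over the same span Kit went from 6.99 to 5.77 with Epo and from 8.39 to 7.94 without. Insr went from 5.26 to 4.45 with Epo and from 5.64 to 6.02 without. Ifngr2 went from 5.09 to 5.41 with Epo and from 5.50 to 6.40 without. Of 20 genes listed as other brakes of this or related signalling, 1 was higher and 14 were lower (median -0.35). Among these were Dusp1, a gene for a phosphatase of MAP kinases, at -2.18 ± 0.21 and Usp18, a brake of interferon receptors, at -1.71 ± 0.26. Btrc, a receptor-directed ubiquitin ligase subunit gene, lay at -1.35 ± 0.15 and the ubiquitin ligase gene Cblb at -1.07 ± 0.16. In the order named, these genes differed at 0 h by 0.60, 0.20, -0.23 and -0.52. From 0 h to the mean of 1 to 7 h, Dusp1 went from 8.39 to 8.00 with Epo and from 7.79 to 10.18 without. Usp18 went from 7.17 to 5.73 with Epo and from 6.97 to 7.44 without. Btrc went from 6.89 to 6.22 with Epo and from 7.12 to 7.57 without. Cblb went from 5.01 to 5.00 with Epo and from 5.54 to 6.08 without.

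Of 28 other genes known as targets of STAT5, 5 were higher and 7 lower with Epo at 1 to 7 h (median -0.03), counts near the shares of all genes (18.2% and 20.2%). In the late Epo arrays 7 had risen and 8 fallen relative to 1 to 8 h (17.6% and 18.5% of all genes; median 0.10, against 0.08 over all genes). Pim1, a survival kinase gene, was higher by 1.94 ± 0.16 (adjusted p = 5.2e-06) and rose further in the late arrays, by 0.80 ± 0.22 (adjusted p = 0.010). Id2, an inhibitor of differentiation factors, was higher by 1.25 ± 0.14, after 2.11 at 0 h, and fell with Epo by 0.38 per hour (± 0.03, adjusted p = 6.0e-06). The erythroid repressor gene Gfi1b was lower, at -1.58 ± 0.13, and the survival gene Mcl1 at -0.91 ± 0.16. At 0 h Pim1, Gfi1b and Mcl1 differed by -0.40, -0.15 and -0.22. From 0 h to the mean of 1 to 7 h, Gfi1b went from 10.01 to 10.10 with Epo and from 10.16 to 11.68 without. Mcl1 went from 10.29 to 10.57 with Epo and from 10.51 to 11.48 without. Pim1 went from 7.46 to 9.12 with Epo and from 7.86 to 7.18 without.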

How the data were processed

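RNA was measured on mouse expression arrays, 1 per sample. The deposited values run between 1.37 and 14.56 and were taken as log2. The method by which the authors summarised and scaled them was not given in the sources used here. Precision is limited by the number of arrays. Of 45101 probe sets, 34958 named 1 gene, 932 several and 9211 none in the platform annotation; 34754 were matched by gene ID to a table of assembly GRCm38.p6, and no symbol changed. Each gene was read from its probe set with the highest mean, and no filter on dim genes was used.

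Differences and slopes were fitted on all 18194 genes with limma 3.58.1 in R 4.3.3 (eBayes with trend, Benjamini-Hochberg adjustment), with time as a block for the Epo effect at 1 to 7 h. Slopes are in log2 units per hour. Promoter searches, tables and plots used Python 3.11.15 with pandas 2.3.3, numpy 2.4.6 and, for plots, matplotlib 3.10.9.

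The members, lists and tests were chosen with earlier results of these data known. Named genes were the 8 members, up to 4 called genes of each list with the largest Epo effect, and the 5 genes most like Cish, Socs1, Socs2 and Socs3. Alternatives were quantile normalization, median centring, the brighter genes only, other choices of probe set, no variance trend, each hour left out, other uses of 0 h and other time scales or windows. No sequence of Socs6 was searched, and Socs2, Socs5 and Socs7 were not matched in the promoter table.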

Additional observations from a re-analysis of the deposited data

Results flagged for a closer look

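Cish at 1 h with Epo, at 9.14, stood apart from the other arrays of 1 to 8 h with Epo, the next of which lay at 8.47. It was the only gap of this kind in 16 groups of arrays examined over the 8 genes. For independent values chance alone flags about 1 group in 20, so 1 in 16 is near that rate. The hours of such a group follow each other in time.

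The courses of Socs2 and Socs4 with and without Epo differed by a test of the difference itself. The matched difference of Socs2 changed by 0.503 per hour (limma, adjusted p = 2.6e-05), and Epo was higher in 7 of 7 pairs. The matched difference of Socs4 changed by -0.182 per hour (adjusted p = 0.0078), and Epo was lower in 6 of 7 pairs. This Socs4 slope did not pass without the pair at 1 h (adjusted p = 0.055) or as the mean of all its probe sets (adjusted p = 0.10).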

How the results depend on the processing

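Of 762 values of the 8 genes under an alternative, 688 kept their direction and their side of the threshold, 43 changed sign, 21 no longer passed and 10 newly passed. This count overstates stability, since some alternatives could not move an estimate. The brighter genes only and no variance trend kept every estimate, and other choices of probe set kept those of Cish and Socs1. For the slopes without Epo, leaving out 0 h and fitting 1 to 7 h were the same fit, counted apart. At 1 to 7 h the Epo effect of Socs3 passed under all 16 alternatives run, and those of Cish and Socs2 under 15. With the 0 h difference subtracted, 12 genes were called in place of 6982, or 678 with drift; Cish was at 2.15, Socs2 at 1.69, Socs4 at -0.19 and Socs5 at -0.015, and Socs6 (0.51) and Socs7 (0.15) changed sign. Quantile normalization gave -0.20 for Socs5 and 0.096 for Socs6, and the mean of all probe sets -0.88 for Socs6 and -0.20 for Socs7. Leaving out single hours gave -0.34 to -0.24 for Socs5. The cause was not tested.

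For the slope of the differences, values with the opposite sign were 0.0065 (quantile normalization) and 0.066 (mean of probe sets) for Socs5 and -0.089 (mean of probe sets) for Socs6; single hours left out gave -0.031 to 0.034 and -0.019 to 0.041, and 1725 (without 6 h) to 2695 genes called in place of 2770. With 0 h included, Cish (0.22, adjusted p = 0.041) and Socs3 (0.30, adjusted p = 0.011) passed. Without Epo, Socs5 was at 0.00011 (quantile normalization), 0.0030 (median centring) and 0.018 (1 to 7 h), Socs6 at 0.066 (mean of probe sets, adjusted p = 0.030), Socs7 at 0.0097 (mean of probe sets) and 0.017 (1 to 7 h), and Socs3 at 0.0035 (no cross-hybridisation suffix). Single hours left out gave -0.015 to 0.018 for Socs5 and -0.027 to 0.017 for Socs7. With Epo at 1 to 8 h, Socs1 was at 1.7e-06 and Socs6 at 0.0051 after median centring, and Socs5 at -0.0019 and Socs6 at 0.0099 on log2 time. The mean of all its probe sets lost the Socs2 rise (0.041 per hour, adjusted p = 0.27). Single hours left out gave -0.011 to 0.0058 for Socs1, -0.0094 to 0.071 for Socs4, -0.018 to 0.040 for Socs5, -0.016 to 0.018 for Socs6 and 641 (without 7 h; 671 without 2 h) to 1063 genes in place of 1056.

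In the late comparison Cish was at -0.014 after median centring; single hours left out gave -0.15 to 0.23 for Cish, -0.0014 to 0.15 for Socs4 and 4231 (without 24 h) to 7255 genes in place of 6579, and early hours 6 to 8 gave 2896, a comparison of fewer arrays. Against untreated cells the brighter genes alone gave 5108 of 9097 tested in place of 8134. The labels give no replicate numbers, and hours paired the arrays for the Epo effect; without that block 6615 genes were called. With no detection calls, signal over background is unknown for Socs1 and the dimmest probe sets.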
